A study of Drosophila melanogaster with 2 samples.

Results

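CLAMP-GFP binding was described at 8 paired-like homeobox genes of Drosophila melanogaster: Vsx1, Ptx1, unc-4, OdsH, Rx, al, hbn and repo. The 8 genes were chosen by name, with their peak signals in these same data already known, out of 13945 protein-coding genes on the chromosome arms. Their peaks were selected on position, as summits inside a gene or within 20 kb of it. That gave 30 of the 3077 peaks of the optimal set, the list the authors derived from both replicates. Signal, rank, presence in the replicates and distance within 20 kb therefore chose the members, and they are given below as descriptions with no test. The study held 1 group of 2 biological replicates, numbered 4 and 2. Both came from whole embryos aged 0 to 24 h, males and females together, of a transgenic line that carries CLAMP (CG1832) fused to GFP at its C-terminus. Chromatin was sheared by sonication to between 200 and 800 bp and precipitated through the GFP tag. All values are averages over every cell of the embryo and over the whole of embryonic life, so binding in many cells and strong binding in few cells cannot be told apart. The promoter that drives the transgene is not given in the labels, and no untagged line was analysed here.

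CLAMP is a zinc finger protein that binds GA-rich DNA. It is known for guiding the dosage compensation complex to the male X chromosome, for binding at the histone gene locus and for opening chromatin in the early embryo. Paired-like homeobox genes encode transcription factors whose homeodomain resembles that of the Paired protein but which lack the separate paired domain. In flies and vertebrates they specify parts of the brain, eye, nerve cord, glia and appendages.

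The sequences under the summits show what the strong peaks shared and where they differed. Each is the 201 bases centred on the summit, on the forward strand of the Release 6 genome (dm6 coordinates). Capitals mark uninterrupted alternations of G and A, or of C and T, of at least 5 bases, and matches of GAGCGAG on either strand. The first 4 lie at the starts of Ptx1 (chr3R:30912490-30912690), unc-4 (chrX:17768261-17768461), OdsH (chrX:17789647-17789847) and Vsx1 (chrX:5593969-5594169). The fifth, at the start of repo (chr3R:18235978-18236178), is shown because it holds neither feature. The last, in an intron of OdsH (chrX:17812342-17812542), is shown for its GA run of 24 bp, a length that 1 Rx intron peak also has and no other peak of these windows exceeds. None of the 6 overlaps an annotated exon.
Ptx1 start: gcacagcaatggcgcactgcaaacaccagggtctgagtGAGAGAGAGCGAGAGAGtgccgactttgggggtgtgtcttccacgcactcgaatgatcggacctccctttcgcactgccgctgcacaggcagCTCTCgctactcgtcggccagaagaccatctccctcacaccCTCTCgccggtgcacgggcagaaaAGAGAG
unc-4 start: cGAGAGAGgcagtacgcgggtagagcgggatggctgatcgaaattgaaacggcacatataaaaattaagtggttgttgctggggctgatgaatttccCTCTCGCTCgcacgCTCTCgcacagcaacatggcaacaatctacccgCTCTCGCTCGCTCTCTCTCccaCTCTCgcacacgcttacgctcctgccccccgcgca
OdsH start: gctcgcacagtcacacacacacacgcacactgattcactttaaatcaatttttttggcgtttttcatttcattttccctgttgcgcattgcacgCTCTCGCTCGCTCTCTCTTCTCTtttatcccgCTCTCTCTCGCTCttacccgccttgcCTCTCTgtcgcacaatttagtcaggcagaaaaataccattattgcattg
Vsx1 start: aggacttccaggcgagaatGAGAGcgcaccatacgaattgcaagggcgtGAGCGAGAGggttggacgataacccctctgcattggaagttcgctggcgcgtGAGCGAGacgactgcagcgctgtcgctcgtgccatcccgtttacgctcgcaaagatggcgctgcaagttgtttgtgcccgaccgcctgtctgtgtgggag
repo start: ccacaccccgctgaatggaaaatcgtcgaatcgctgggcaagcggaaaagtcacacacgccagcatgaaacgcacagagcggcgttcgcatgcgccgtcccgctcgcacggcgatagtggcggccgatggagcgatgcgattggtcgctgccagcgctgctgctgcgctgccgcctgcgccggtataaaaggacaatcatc
OdsH intron: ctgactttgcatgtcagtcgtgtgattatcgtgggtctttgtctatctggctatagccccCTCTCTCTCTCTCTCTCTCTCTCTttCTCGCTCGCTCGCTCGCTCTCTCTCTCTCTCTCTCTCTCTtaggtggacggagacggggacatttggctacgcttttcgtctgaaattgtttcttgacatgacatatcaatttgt

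Among these 6 windows GAGAG, counted on both strands with overlaps, occurred 8 times at the Ptx1 start, 9 times at unc-4, 7 times at OdsH and 2 times at Vsx1. GAGCGAG, the same kind of alternation broken by 1 C, occurred 1, 3, 3 and 2 times in the same order. The OdsH intron held GAGAG 20 times and GAGCGAG 4 times, and its longest unbroken run was 24 bp. The repo start held neither, and its longest alternation was 4 bp. The signals of the first 4 ranged from 2138 to 6296, that of the repo start was 1197 and that of the OdsH intron 202. The window with the longest run thus had the lowest signal of the 6. These 6 were picked to show contrasts, and no order of signal is read from them.

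Each of the 8 genes had a peak upstream of its start. Signal here is the enrichment that the authors' peak caller gave each region, and rank 1 is the strongest region of a list. Ptx1, the fly homologue of the vertebrate Pitx genes, had the strongest of these peaks. At the Ptx1 start (FBgn0020912, 3R:30912754-30930682, forward strand) the signal was 6296 in the optimal set, 5007 in replicate 4 and 1284 in replicate 2, which placed it at rank 5, 5 and 12. At unc-4, which specifies motor and interneuron identity (FBgn0024184, X:17768569-17778708, forward), the signal was 6033, 4679 and 1368, or rank 7, 8 and 10. At Vsx1, a regulator of the optic lobe (FBgn0263511, X:5594255-5612865, forward), it was 4184, 3233 and 928, or rank 34, 30 and 53. These 3 peaks were among the 53 strongest regions of every list.

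OdsH, a neighbouring paralogue of unc-4 known from hybrid male sterility between Drosophila species (FBgn0026058, X:17791010-17814011, forward), had a signal of 2138 in the optimal set, 1636 in replicate 4 and 540 in replicate 2. Its ranks were 142, 131 and 153. The list of replicate 2 held 2 summits within 1 region at the OdsH start, the stronger of signal 540 and the weaker of 85.3 (rank 1837), and the stronger was used. For hbn, or homeobrain, of the anterior brain (FBgn0008636, 2R:20954668-20960909, reverse), the signal was 1341, 981 and 358, or rank 278, 270 and 316. The start of repo, the regulator of glial fate (FBgn0011701, 3R:18236192-18239602, forward), had 1197, 911 and 283, or rank 320, 297 and 446. These 3 lay below the first group in every list.

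At al, or aristaless, of the antenna and leg tip (FBgn0000061, 2L:378112-387439, forward), the signal was 932, 744 and 197, or rank 443, 372 and 727. At Rx, a regulator of brain development and a homologue of the vertebrate retinal homeobox genes (FBgn0020617, 2R:20916753-20937030, forward), it was 315, 184 and 139, or rank 1340, 1379 and 1145. Rx was the last of the 8 in every list. The order of the 8 was the same in all 3 lists except for Ptx1 and unc-4, whose signal ratio was 1.04 in the optimal set, 1.07 in replicate 4 and 0.939 in replicate 2. These neighbours in the order did not keep a direction between the replicates. The optimal values are those of both replicates pooled, so they are not a separate measurement. With 1 group of 2 replicates there is no test of any of these differences.

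**Figure D1:**
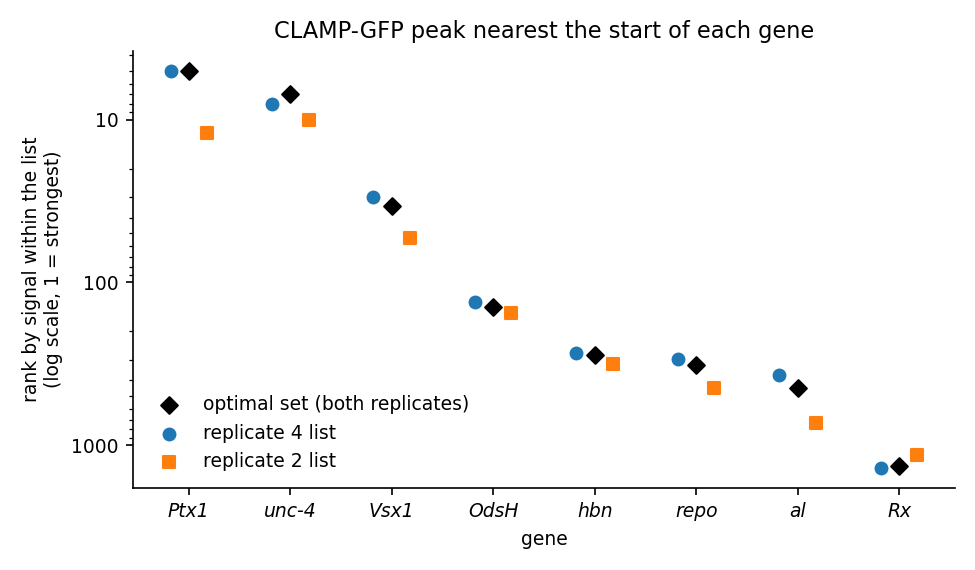
Rank by signal (vertical, log scale, 1 at the top) of the peak nearest the start of each gene (horizontal), in the optimal set (black diamonds), the list of replicate 4 (blue circles) and the list of replicate 2 (orange squares). Ptx1 and unc-4 sit between ranks 5 and 12 in every list, and Rx lies below rank 1000 in every list.

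The gene-start summits lay between 114 and 1263 bp before the gene. Their distances upstream of the transcription start site (TSS) were 114 bp at repo, 164 bp at Ptx1, 176 bp at hbn, 180 bp at al, 186 bp at Vsx1, 208 bp at unc-4, 442 bp at Rx and 1263 bp at OdsH. So 6 of the 8 summits fell between 100 and 250 bp upstream, a band drawn after these values were seen. Of the 1078 optimal peaks at promoters, meaning a summit within 500 bp of a TSS, 29.2% lay in that band, and 60.7% were upstream of the nearest TSS. Of the 174 promoter peaks among the 300 strongest, 44.3% lay in the band and 79.9% were upstream. All 8 summits were upstream in each replicate. The summits moved by at most 13 bp in replicate 4 and, apart from 109 bp at OdsH, by at most 25 bp in replicate 2. Replicate summits were sought only within 200 bp of the optimal summit. At unc-4, Rx and OdsH they therefore could not have come out downstream.

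**Figure D2:**
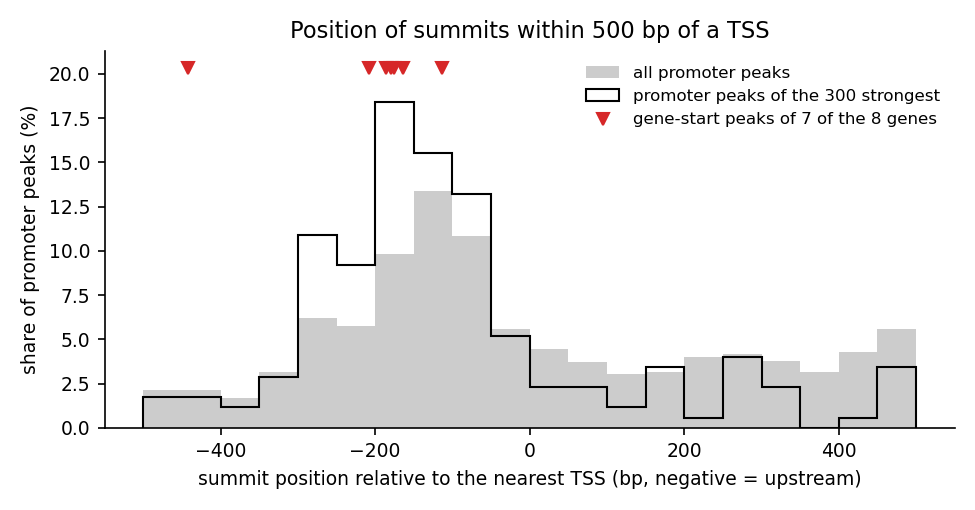
Share of promoter peaks (vertical, %) by position of the summit relative to the nearest TSS (horizontal, bp, negative upstream, bins of equal width), for all 1078 promoter peaks (grey) and the 174 among the 300 strongest (black outline). Red triangles mark the gene-start summits of 7 of the 8 genes, and that of OdsH lies farther upstream than the axis reaches; 6 triangles fall between 114 and 208 bp upstream.

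Counted by gene, 7 of the 8 had a summit no more than 1 kb from their TSS, against 10.2% of all protein-coding genes, and OdsH was the exception. All 8 had a peak within 20 kb, against 57.5% of genes, and 6 of 8 had 1 of the 300 strongest peaks within 20 kb, against 9.22%. The genes were chosen for such peaks, so nothing is read from these shares. The number of peaks per window was 4 at Vsx1, 2 at Ptx1, 4 at unc-4, 9 at OdsH, 8 at Rx, 1 at al, 3 at hbn and 4 at repo. The median was 4, against 1 over all protein-coding genes, where the 90th percentile was 3. Windows of the 8 genes were somewhat longer, with a median of 54.0 kb against 42.2 kb. The windows overlap at neighbouring genes, so 5 peaks count for a pair of genes and the 35 entries are 30 peaks. Together the windows cover 379 kb and hold 79.2 peaks per Mb, against 23.0 on the 6 chromosome arms, a description from which nothing is read, since the genes were chosen with their peaks known.

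Some window counts turned on the list used. Counts from the strongest 3077 regions of replicate 4 alone and of replicate 2 alone are given in that order. They were 3 and 6 at unc-4, 6 and 11 at OdsH, and 3 and 4 at Vsx1. They were 9 and 6 at Rx, 7 and 4 at repo, 4 and 1 at hbn, and 2 and 1 at al. At Ptx1 both were 2. Among its strongest 3077 regions, replicate 4 held 6 in these windows that matched no optimal peak, at ranks 2138 to 3031. Of these, 4 were in the repo window, most of them nearest to the start of another gene. Replicate 2 held 2, at ranks 2964 and 2984.

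In 7 of the 8 windows the gene-start peak was the strongest. It exceeded the next peak of its window 18.5-fold at Ptx1, 8.75-fold at hbn, 4.48-fold at OdsH, 3.13-fold at repo and 2.82-fold at unc-4, where the next peak was the OdsH start. The al window held no other peak. At Vsx1 the ratio was 1.10, because an intergenic peak at X:5579706, 14549 bp upstream of the Vsx1 start, had a signal of 3813 and rank 40. In replicate 4 the start was the stronger of this pair (ratio 1.15) and in replicate 2 the distal peak was (ratio 0.969), so their order was not resolved.

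**Figure D3:**
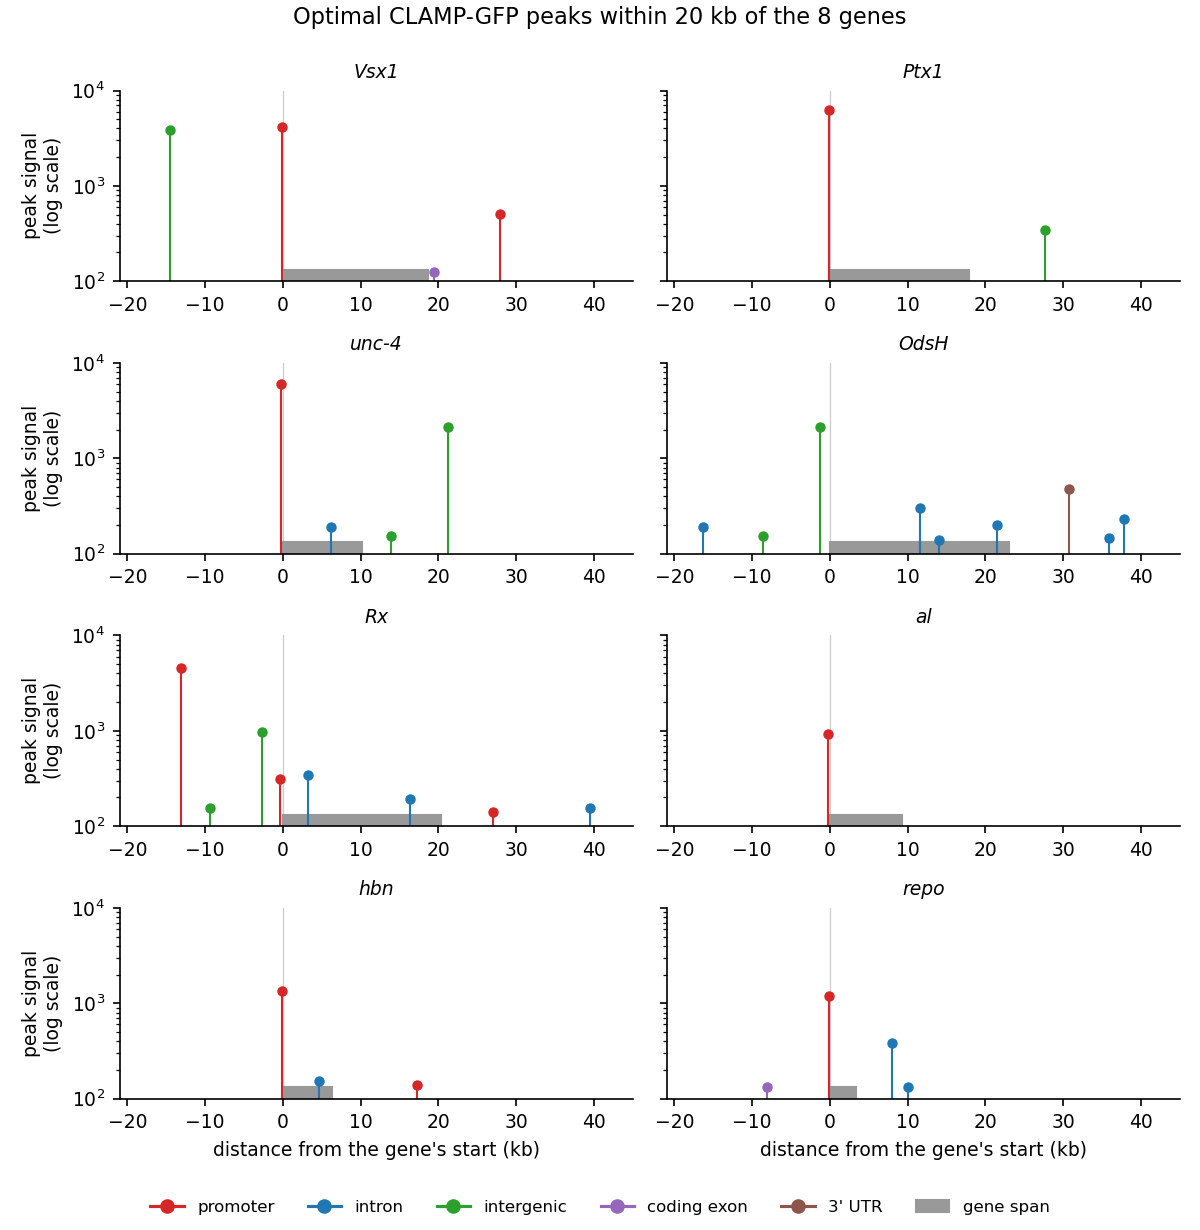
Signal (vertical, log scale) of every optimal peak within 20 kb of each gene, by distance from the gene's start in the direction of transcription (horizontal, kb); colour gives the summit's annotation and the grey bar the gene's span. A single peak at the start stands above the rest at Ptx1, hbn and repo, Vsx1 has a pair of similar height, and at Rx the tallest peak is 13.1 kb upstream, at otp.

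The Rx window was the exception. Its strongest peak lay at otp, or orthopedia, a paired-like gene of brain and hindgut (FBgn0015524, 2R:20883625-20903414, reverse), 260 bp upstream of the otp start. There the signal was 4550 in the optimal set, 3523 in replicate 4 and 1029 in replicate 2, or rank 26, 25 and 40. The otp peak was 14.4 times as strong as the Rx start in the optimal set, 19.1 times in replicate 4 and 7.41 times in replicate 2. It was 3.39, 3.59 and 2.87 times as strong as the hbn start. The hbn start in turn was 4.25, 5.32 and 2.58 times as strong as the Rx start. All these ratios kept their direction in both replicates, and each was larger in replicate 4.

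otp, Rx and hbn lie near each other on 2R, with 13.3 kb between otp and Rx and 17.6 kb between Rx and hbn. Genes of other families lie in both gaps. The 77.8 kb from otp to the hbn start held 13 optimal peaks, of which 13 were found in replicate 4 and 11 in replicate 2. Found means that a region among the 3077 strongest of that replicate had its summit within 200 bp. Between otp and Rx an intergenic peak 2646 bp upstream of Rx had a signal of 976 (rank 413), against 315 at the Rx start itself. The ratio of the intergenic peak to the Rx start was 3.10 in the optimal set, 3.78 in replicate 4 and 2.07 in replicate 2. Within Rx, 2 intron peaks had signals of 343 and 192. A peak near the start of Act57B, an actin gene between Rx and hbn, had 141, and the hbn intron peak had 153. These last 2 were the peaks of the cluster not found in replicate 2, where they ranked 3579 and 3169.

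unc-4 and OdsH are neighbours on X with 12.3 kb between them, and both are transcribed from the forward strand. The unc-4 start peak was 2.82 times as strong as the OdsH start peak in the optimal set, 2.86 times in replicate 4 and 2.53 times in replicate 2. The 45.9 kb from the unc-4 start peak to the end of OdsH held 7 peaks, of which 5 were found in replicate 4 and 7 in replicate 2. Apart from both starts, these were an unc-4 intron peak (signal 190), an intergenic peak (152) and 3 OdsH intron peaks (299, 138 and 202). The intergenic peak ranked 13284 in replicate 4, with a signal of 53.4, and 1661 in replicate 2, with 94.2. Its rank thus depended on the replicate far more than that of either start. The GC content of its 201-base window was 40.8%, the lowest of the 30.

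The rest of the peaks lay at genes of other families. In the OdsH window, 3 were at Socs16D and its surroundings (477, 229 and 146), and in the Vsx1 window 1 was near the start of Mlc-c (511) and 1 in a coding exon of CG34435 (124). In the repo window, 2 were in introns of 14-3-3epsilon (383 and 131) and 1 in a coding exon of Mdh2 (133). The Mdh2 peak had no counterpart in replicate 2. In the Ptx1 window 1 intergenic peak was nearest to CG15550 (341). A window of 20 kb therefore assigns peaks to the 8 genes that may belong to a neighbour.

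Of the 30 peaks, 25 were found in replicate 4, where 79.0% of all optimal peaks were, and 26 in replicate 2, against 74.2%. Both replicates held 22 of the 30, against 59.1% of all optimal peaks. Counting background regions too, replicate 4 held all 30, against 85.4% of all optimal peaks, and replicate 2 held 29, against 93.9%. Over those 29 peaks, which share their regions and the pooled call, Spearman's rho between the replicates' signals was 0.914, and over the 2458 optimal peaks in both lists it was 0.795. These values describe the lists, and the rule that chose the members looked at both replicates. The optimal set was identical to the 3077 strongest pooled regions, and not every optimal peak had a region in each replicate list. The weakest peaks inside the set had signals of 124, 131 and 133, and the strongest pooled regions of the windows left outside it had 118, in an OdsH intron, and 112. By distance from the gene of a window, the farthest peak inside was 19.2 kb from Rx, but it lay in an intron of hbn. The next, 16.3 kb from OdsH, lay in an intron of unc-4. Both peaks lay inside a member gene, so the 20 kb limit did not decide their membership. The nearest peak outside was 20.2 kb from OdsH.

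By place, 10 of the 30 peaks were at a promoter, against 35.0% of all optimal peaks. Introns held 11 (36.7%, against 36.8% of all peaks), intergenic DNA 6 (20%, against 14.8%), coding exons 2 (6.67%, against 7.77%) and a 3' UTR 1 (3.33%, against 2.01%). These shares were near those of all peaks. The median signal of the 10 promoter peaks was 1269, against 360 over all 1078 promoter peaks. The signal helped choose the genes, so that median is a description. The 10 include promoter peaks of other genes, at otp (4550), Mlc-c (511) and Act57B (141). They leave out the OdsH start (2138), which counted as intergenic. The intron and intergenic peaks had a median of 202, against 263 over all such peaks.

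Sequence was not part of the choice of members, but signal was. GAGCGAG was present at 68.3% of the 300 strongest peaks and at 36.4% of the optimal peaks below them. The shares of the members are therefore not independent of their choice. A GA run, meaning an uninterrupted GA or CT alternation of 8 bp or more within 100 bp of the summit, was present at 13 of the 30 peaks (43.3%, exact binomial 95% interval 25.5 to 62.6%), against 34.4% of all optimal peaks. In equal windows 1000 bp to each side, 3 of 60 held one beside these peaks and 3.30% beside all peaks. GAGAG was present at 23 of 30 (76.7%, 57.7 to 90.1%), against 74.3% of all peaks and 25.2% of all flanking windows. GAGCGAG was present at 14 of 30 (46.7%, 28.3 to 65.7%), against 39.6% of all peaks and 3.62% of all flanks, and at 0 of the 60 flanks of these peaks (up to 5.96% by the exact interval). GAGCGAG was read off the sequences of these peaks, so its count among them is not independent. GAGAG and GAGCGAG share the letters GAG and can overlap, and all were searched on both strands. The share of all optimal peaks lay inside the members' interval for each of the 3 features, so no difference was detectable with 30 peaks.

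**Figure D4:**
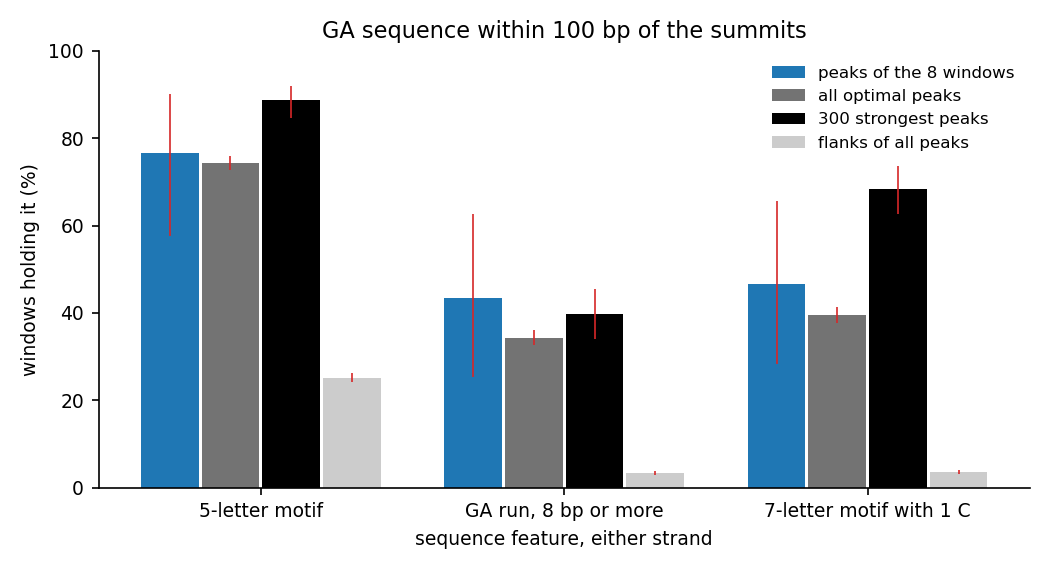
Share of windows (vertical, %) that hold GAGAG (left), a GA run of 8 bp or more (middle) or GAGCGAG (right), for the 30 peaks of the 8 genes, all 3077 optimal peaks, the 300 strongest and the flanks of all peaks; red lines are exact binomial 95% intervals. The bars of the 30 peaks stand at 76.7%, 43.3% and 46.7%, and their intervals cover the share of all optimal peaks.

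Strong peaks and long runs were compared within the windows. Of the 7 peaks of these windows among the 300 strongest, 6 held GAGCGAG, against 68.3% of those 300, and 5 held a GA run, against 39.7%. The longest run among the 7 was 9 bp. Runs of 15 bp or more, a class set after seeing the values, were present at 6 of the 30 peaks and at 10.7% of all optimal peaks. Of the 7 strong peaks 0 had such a run (up to 41.0% by the exact interval), against 8.67% of the 300 strongest, so with 7 peaks no difference was detectable. All 6 had signals between 155 and 976 and none ranked above 413, and 5 of them lay in or near Rx. They were the intergenic peak upstream of Rx (15 bp), the Rx start (21 bp), both Rx introns (24 and 16 bp) and the intergenic peak nearest to CAH15 (19 bp). The sixth was the OdsH intron shown above. The otp start, by contrast, had a run of 4 bp and neither GAGAG nor GAGCGAG, with a signal of 4550.

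**Figure D5:**
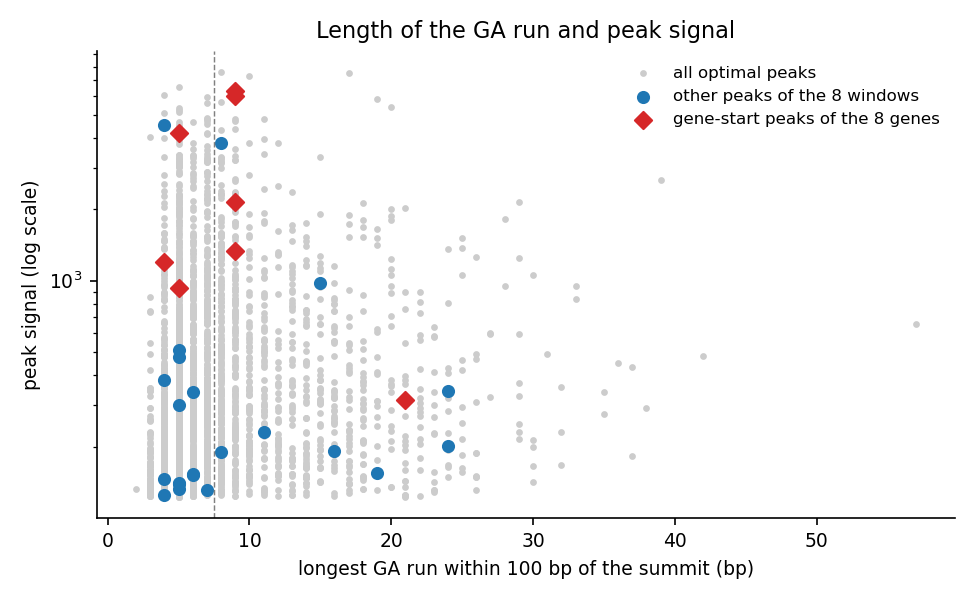
Peak signal (vertical, log scale) against the longest GA run within 100 bp of the summit (horizontal, bp), for all optimal peaks (grey), the gene-start peaks of the 8 genes (red diamonds) and the other peaks of their windows (blue circles); the dashed line marks 8 bp. The peaks of these windows with runs of 15 bp or more all lie below a signal of 1000.

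Among the 8 gene starts, GAGAG was present at 7, GAGCGAG at 6 and a GA run of 8 bp or more at 5. Over all 1078 promoter peaks the shares were 74.7%, 43.9% and 34.6%, and with 8 starts, 1 of them outside the promoter distance, no difference is read from these counts. repo lacked all 3, and Rx had a run and GAGAG without GAGCGAG. The GC content of the 201-base windows was 62.7% at repo, 60.7% at Ptx1, 60.2% at al, 59.7% at Vsx1, 56.7% at both unc-4 and hbn, 47.3% at Rx and 45.8% at OdsH. The pair of lowest GC content was also the pair farthest from the TSS. Over all optimal peaks the median GC content was 51.2%.

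Other members of the family had peaks nearby. Of 10 further paired-like genes, 10 had an optimal peak within 20 kb (57.5% of all protein-coding genes), 7 had one within 1 kb of a TSS (10.2%) and 6 had 1 of the 300 strongest peaks within 20 kb (9.22%). A peak within 20 kb can lie far from the gene, as at CG34367, where the nearest summit was 11962 bp from its TSS. The strongest was at oc (orthodenticle), a head patterning gene, with a signal of 7546 at rank 2, followed by otp. CG32532 had 2122 (rank 144), Gsc, the fly goosecoid, 1699 (rank 203) and Drgx 1562 (rank 221). The strongest peak in the window of Pph13, a photoreceptor gene, was that of its neighbour Gsc. The strongest peaks in the windows of PHDP (405), CG11294 (259), CG9876 (189) and CG34367 (133) were weaker. The median over all optimal peaks was 273. Those of PHDP, CG9876 and CG34367 were nearest to the starts of other genes, although PHDP also had a summit 126 bp from its TSS.

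Of 7 genes that encode a paired domain, 6 had a peak within 20 kb (57.5% of all protein-coding genes), 4 within 1 kb of a TSS (10.2%) and 5 had 1 of the 300 strongest within 20 kb (9.22%). eyg, of eye development, had 4811 (rank 19), and its neighbour toe 1915 (rank 166). gsb, a segment polarity gene, had 2974 (rank 86), which also counted for its neighbour gsb-n. toy, an upstream regulator of eye development, had 2169 (rank 137), although 0 of the 3077 strongest regions of replicate 4 lay in its window. prd, a pair-rule gene, had 1174 (rank 326). No optimal peak lay within 20 kb of ey, the other Pax6 homologue. Its window held 1 of the 3077 strongest regions of replicate 2 and 0 of those of replicate 4. Of the genes in both lists, only toy and ey lie on chromosome 4. Whether replicate 4 lacked strong regions along that whole chromosome was not tested. Both lists were drawn up from general knowledge of the families, with earlier results of these data known. They hold neighbouring genes that share peaks, and the otp peak is also the strongest of the Rx window. Their counts are therefore not of independent genes, and nothing is read from them beside the shares of all genes.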

How the data were processed

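CLAMP-GFP ChIP-seq peak lists of replicates 4 and 2, of both pooled, and the optimal set were used in dm6; the dm3 lists were not used. Per the deposited text files, each list was called against 1 control, and the optimal set came from an irreproducible discovery rate step. That step's threshold, the caller and the aligner were not given in the sources used here. Values are in units of signal, the enrichment that the authors' caller gave each region. Whether it was scaled to depth is not stated, and read depth is unknown, so signals were compared only within a list. The deposited score was not used to filter, since it falls below 0 in 1 list. The 3077 optimal peaks were identical to the strongest regions of the pooled list of 30000.

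Positions were annotated with Ensembl release 115 (BDGP 6.54) and sequences read from the RefSeq copy of the Release 6 genome; 0 regions ended beyond their arm. Only starts of protein-coding and ncRNA transcripts counted as TSSs. Each peak was matched to the strongest replicate region with a summit within 200 bp, a choice made after a nearer but weaker summit was seen at OdsH. Intervals are exact at 95% and cover counting error only. No test between groups was possible with 1 group. Python 3.11.15, numpy 2.4.6, scipy 1.17.1, pandas 2.3.3 and matplotlib 3.10.9 were used. The length of GA runs, the count of peaks in a window and the matching of shifted summits were tried on simulated data. The other steps, and the rejection of summits too far to match, were not.

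The members, gene lists and measures were chosen with earlier results of these data known. Named are the 8 genes with their strongest peaks, neighbouring paralogues and the genes of both related lists; the other peaks were named after their values were seen. The result for 1 gene is not reported here. Alternatives varied the distances, run length, peak set and replicates.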

Additional observations from a re-analysis of the deposited data

How the results depend on the processing

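The 30 peaks became 19 within 5 kb, 7 within the gene span and 17 in the stronger 1538 optimal peaks. The median per gene of 4 became 2, 0.5 and 2 in the same settings. The median rank of the strongest peak in a window, 88, became 210 at both 10 kb and 5 kb, where the otp peak left the Rx window, and 1721 within the gene span, where Vsx1, Ptx1, al and repo held no peak and gave no value. The share of peaks with a GA run, 43.3%, became 20% for runs of 12 bp or more, and the promoter share, 33.3%, became 52.9% in the stronger 1538 peaks. The 10 other paired-like genes with a peak became 4 within the gene span. With 1 replicate left out, the peaks numbered 30 to 32, the median per gene was 3.5 to 4, the median rank 80.5 to 100, the genes with a peak within 1 kb of a TSS 7 to 8, the GA run share 43.3 to 43.75%, the promoter share 30 to 31.25% and the other paired-like genes with a peak 8 to 10. In all, 31 alternatives of the summary values, those without 1 replicate among them, stayed within 1.5 times the count, or within the interval or replicate spread, of the reported value. For ranks that spread came from the same 2 replicates, so the ranks without 1 replicate are no independent check, and nothing is read from their staying within it. Of 90 alternatives for single genes and single replicates, 34 went beyond those limits. No paired analysis was possible because the study has 1 group. Peak lists give no read depth, and 2 replicates set the precision.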
